A study of Mus musculus with 16 samples.

Results

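The genes encoded on mitochondrial DNA were taken as the rows of the deposited FPKM table (fragments counted per gene, scaled to gene length and library size) whose symbol starts with mt-. There were 37 such rows among 43437 genes, of which 13 encode proteins, 2 encode ribosomal RNAs (rRNAs) and 22 encode transfer RNAs (tRNAs). They were read in 16 libraries of polyadenylated RNA. Each library pooled 10 mouse embryos of the 8-cell stage, or about 80 cells. The study depleted 2 transcription factors of the early embryo, Tfap2c and Tead4. Zygotes had been injected with double-stranded RNA (dsRNA), which lowers the matching transcript, in 4 groups of 4 libraries: against Tfap2c (Tfap2cKD), against Tead4 (Tead4KD), against both (DoubleKD), or against GFP, which mouse embryos lack, as the control (dsGFP). Every embryo was therefore injected, and a transcript that dsRNA lowers is not removed as in a knockout.

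Each group held 2 libraries of each of 2 crosses, named B1 and B2 or A1 and A2. In cross B the mothers were C57BL/6J×DBA/2J, and in cross A they were C57BL/6J×CBA/J. Fathers were labelled C57BL/6J×DBA/2J in the first library of each cross, and the number in the DBA name counts upward over the other libraries; that number was not used. The labels name no batch, so the cross and a batch that coincides with it cannot be told apart. Separate matings or cultures within a group are not mentioned either, so the p-values reflect how much these pooled libraries varied, which may be technical.

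Mitochondrial DNA is a small circle that offspring inherit from the mother, and an embryo before implantation draws on mitochondria already made in the oocyte. It is transcribed from both strands into long precursors, which are cut mostly at the tRNAs that lie between the other genes. Most of the mRNAs, and both rRNAs, then receive short poly(A) tails, so they can be captured with the mRNAs of the nucleus. The values below are of the RNA captured in this way, and how completely each RNA was captured was not measured. The 13 proteins are core subunits of the respiratory chain and of ATP synthase: complex I (mt-Nd1 to mt-Nd6 and mt-Nd4l), complex III (mt-Cytb), complex IV (mt-Co1 to mt-Co3) and complex V (mt-Atp6 and mt-Atp8).

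Some neighbouring genes share bases, and 2 pairs of them lie on 1 bicistronic mRNA each, so their rows do not count separate molecules. Coordinates are those of RefSeq GRCm38.p6 (mm10), and all 37 genes have the same span in GENCODE vM1, from which the sequences were read by gene. mt-Atp8 (ENSMUSG00000064356) lies at MT 7766 to 7969 and mt-Atp6 (ENSMUSG00000064357) at MT 7927 to 8607, both on the plus strand. The 43 bases they share, in different reading frames, are in capitals in the whole mt-Atp8 gene and in the first 60 bases of mt-Atp6.
mt-Atp8: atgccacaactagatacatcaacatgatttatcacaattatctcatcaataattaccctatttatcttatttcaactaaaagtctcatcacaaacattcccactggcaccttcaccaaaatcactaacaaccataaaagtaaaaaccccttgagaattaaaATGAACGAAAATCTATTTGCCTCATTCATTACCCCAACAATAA
mt-Atp6: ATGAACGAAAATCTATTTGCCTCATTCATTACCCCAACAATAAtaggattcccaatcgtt

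The second pair is mt-Nd4l (ENSMUSG00000065947, MT 9877 to 10173) and mt-Nd4 (ENSMUSG00000064363, MT 10167 to 11544). They share 7 bases, in capitals in the last 40 bases of mt-Nd4l and the first 40 of mt-Nd4.
mt-Nd4l: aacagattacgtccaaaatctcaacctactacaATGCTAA
mt-Nd4: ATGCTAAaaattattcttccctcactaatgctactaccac

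mt-Nd6 (ENSMUSG00000064368, MT 13552 to 14070) is the 1 protein gene on the minus strand, against 12 on the plus strand. Its end meets the end of mt-Nd5 (ENSMUSG00000064367, MT 11742 to 13565) over 14 bases that both strands read, in capitals in the last 40 bases of each gene, written along its own strand.
mt-Nd5: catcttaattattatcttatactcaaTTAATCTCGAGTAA
mt-Nd6: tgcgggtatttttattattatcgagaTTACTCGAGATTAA
The share of G was 28.1% in mt-Nd6 and between 5.88% and 16.1% in the other protein genes. Whether fragments were counted by strand is not given in the sources used here. If they were not, mt-Nd6 cannot be told apart from RNA of the opposite strand at the same place.

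For 3 protein genes the reading frame ends in a lone T, in capitals in their last 31 bases, which the poly(A) tail completes to a stop codon.
mt-Co3: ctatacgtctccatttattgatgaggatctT
mt-Nd4: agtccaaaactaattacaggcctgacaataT
mt-Cytb: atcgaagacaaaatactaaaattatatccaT
The other 10 protein genes carry a full stop codon.

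The nuclear genome holds a near-identical copy of part of mitochondrial DNA, which bears on the values of 8 of these genes. In NCBIM37, the mouse genome given here, 8 of the 15 protein and rRNA genes matched a stretch of 4654 bases on chromosome 1 (24618374 to 24623027) at over 99% identity. Of these, 6 matched over their whole length, and mt-Co2, mt-Atp8, mt-Atp6, mt-Co3 and mt-Nd4l did so with every base the same. mt-Nd3 matched at 99.71%, and mt-Nd4 and mt-Co1 matched over 63.6% and 31.3% of their length. mt-Rnr1, mt-Rnr2, mt-Nd1, mt-Nd2, mt-Nd5, mt-Nd6 and mt-Cytb had no match there. Less similar matches lay on other chromosomes. mt-Nd5 matched over 955 bases at 95.2% on chromosome 13, and mt-Rnr2 over 373 bases at 97.6% on chromosome 10. On chromosome 2, mt-Nd2 matched over 511 bases at 96.7%, mt-Co1 over 1545 at 97.6% and mt-Co2 over 684 at 95.9%. The table also lists rows whose values follow genes with the chromosome 1 copy. The row of the pseudogene Gm10925 stood at 1.002 to 1.004 times mt-Atp6 in every library, and that of Gm10222 at 0.8596 to 0.8995 times mt-Nd4l. The split of fragments between these genes and their copies is therefore uncertain. Another 5 rows, Gm29216, Gm28661, Gm28437, Gm28438 and Gm28439, are not annotated in the tables used here. Their Pearson correlation of log2(FPKM + 1) with the most similar of mt-Co1, mt-Co2, mt-Co3, mt-Nd3 and mt-Nd4 was 0.936 to 1.0 over the 16 libraries, which share their depth and scaling. The 7 rows held 2.15% to 3.46% of the FPKM of a library.

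The libraries carried cleavage-stage embryo markers, of which 10 of 10 were detected and 8 reached 1 FPKM in every library. Tfap2c mRNA averaged 15.8 ± 1.65 FPKM in Tfap2cKD and 16.2 ± 0.342 FPKM in DoubleKD, against 35.7 ± 6.60 FPKM in dsGFP (SD, n = 4 each). Tead4 mRNA averaged 7.66 ± 2.49 FPKM in Tead4KD and 9.49 ± 3.94 FPKM in DoubleKD, against 48.6 ± 7.00 FPKM in dsGFP (SD, n = 4 each). Tead4 was also lower in Tfap2cKD, at 28.3 ± 7.77 FPKM (SD, n = 4; log2 change against dsGFP -0.79, limma adjusted p = 0.0192). Between 10049 and 10504 genes reached 1 FPKM in a library. Fragment counts were not used here, so the depth behind a value is unknown.

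All 22 tRNA rows were listed at 0 in all 16 libraries and could not be tested. Their genes span 59 to 75 bases. Of 1430 other rows annotated at under 100 bases, 1423 (99.5%) were also listed at 0 in every library, so the zeros cannot be read as a level of tRNA. The 13 protein genes and both rRNA genes stood above 0 in every library and passed the filter of at least 1 FPKM in at least 4 libraries.

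These 15 genes were among the most abundant in the table. mt-Cytb, the cytochrome b subunit of complex III, averaged 16309 ± 3564 FPKM over the 16 libraries (SD). Its mean log2(FPKM + 1) was the highest of all 11422 genes tested. mt-Nd6 was the lowest of the 15 in 16 of 16 libraries at 769 ± 85.0 FPKM (SD, n = 16). By mean log2(FPKM + 1) it still ranked 179 of all genes tested. The means of these 2 genes were 21.2-fold apart in FPKM.

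Between these ends, mt-Atp8 (11186 FPKM on average), mt-Atp6 (10672) and the large rRNA mt-Rnr2 (10542) followed mt-Cytb, and their order changed between libraries. mt-Atp8 was above mt-Atp6 in 7 of 16 libraries, and mt-Atp6 above mt-Rnr2 in 8. mt-Nd1 averaged 8176 FPKM and was above mt-Co1, the next gene, in 16 of 16 libraries. mt-Co1 (3586 FPKM), mt-Nd4l (3439), mt-Nd4 (2963), mt-Co2 (2442), mt-Nd3 (2119) and mt-Co3 (1963) made up the middle. Of these, mt-Co1 and mt-Nd4l changed order between libraries, with mt-Co1 higher in 9, while mt-Nd4l was above mt-Nd4 in all 16. At the low end mt-Nd2 (1371 FPKM), mt-Nd5 (1370) and the small rRNA mt-Rnr1 (1267) changed order between the crosses. mt-Nd2 was above mt-Nd5 in 5 libraries and mt-Nd5 above mt-Rnr1 in 8. In cross A the means were 1560 FPKM for mt-Nd5, 1382 for mt-Nd2 and 1044 for mt-Rnr1. In cross B they ran the other way, at 1181 FPKM for mt-Nd5, 1361 for mt-Nd2 and 1491 for mt-Rnr1. The 2 rRNAs are transcribed next to each other and belong to the 2 subunits of the same ribosome. In these libraries of polyadenylated RNA their rows lay far apart, with mt-Rnr2 between 5.98 and 11.4 times mt-Rnr1 across libraries.

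**Figure D1:**
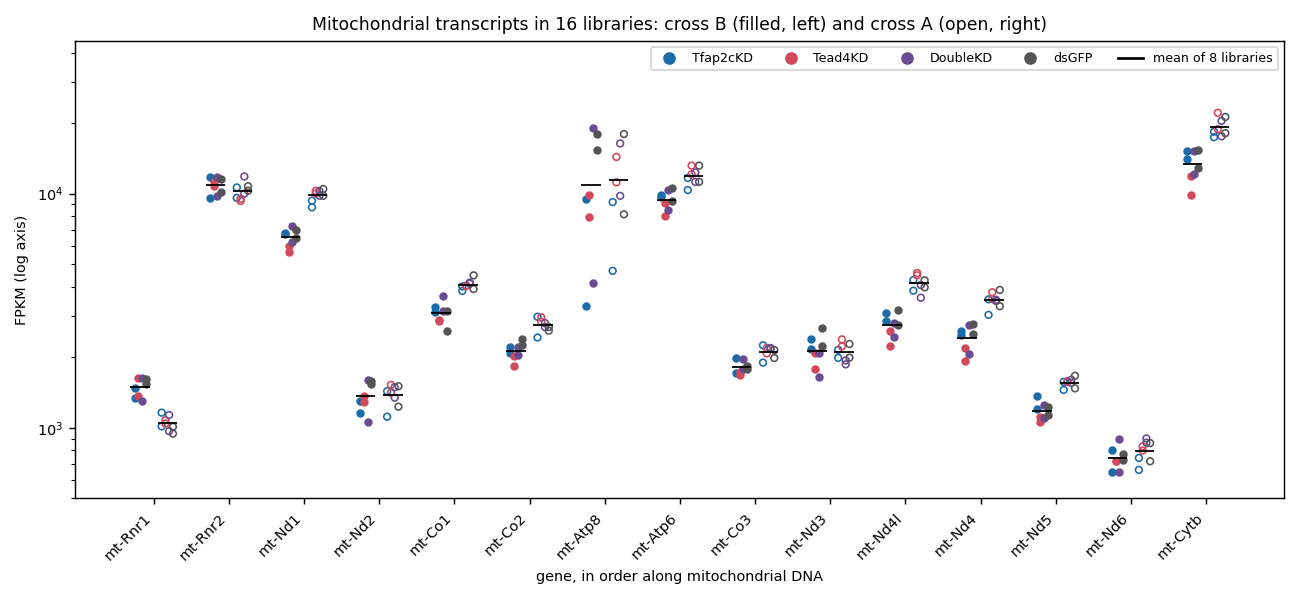
FPKM on a log axis of the 15 mitochondrial genes detected, in their order along mitochondrial DNA, with 1 point per library (n = 16), cross B filled and left, cross A open and right, and a line at the mean of 8 libraries. mt-Cytb is the highest on average and mt-Nd6 the lowest; mt-Rnr1 lies higher in cross B, mt-Nd1, mt-Nd4l, mt-Nd4 and mt-Cytb lie lower in cross B, and mt-Atp8 scatters in both crosses.

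Cross B libraries held less of most mitochondrial mRNAs than cross A libraries and more of the small rRNA, as shares of the polyadenylated RNA captured. In cross B, 9 of the 15 genes were lower and 1, mt-Rnr1, was higher, and all 9 lower genes encode proteins (limma on log2(FPKM + 1), Benjamini-Hochberg adjusted over 11422 genes, threshold 0.05). That is 66.7% of these genes, against 33.5% of all genes that passed in this comparison. In the lower direction it is 60%, against 16.3% of all genes. The median change of the 15 genes was -0.34 on the log2 scale, against 0.01 for all genes. FPKM is relative to the library, so less mitochondrial RNA, more of other RNA, fewer cells and less RNA per cell cannot be told apart. Whether the poly(A) tails, by which the RNA was captured, differed between the crosses was not tested.

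mt-Nd1, a membrane subunit of complex I, gave the smallest adjusted p. Its level in cross B was 6727 and 6784 FPKM in Tfap2cKD, 5616 and 5972 in Tead4KD, 6233 and 7281 in DoubleKD, and 6995 and 6492 in dsGFP. In cross A it was 8747 and 9332 FPKM in Tfap2cKD, 10280 and 10021 in Tead4KD, 9797 and 10273 in DoubleKD, and 9791 and 10471 in dsGFP. Every cross B library lay below every cross A library. The mean was 6512 ± 550 FPKM in cross B, against 9839 ± 569 FPKM in cross A (SD, n = 8 each), a log2 change of -0.60 (SE 0.0530, limma adjusted p = 3.6e-06).

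In complex I, 4 of 7 genes were lower in cross B: mt-Nd1, mt-Nd4l, mt-Nd4 and mt-Nd5. mt-Nd4l read 2859 and 3080 FPKM in Tfap2cKD, 2242 and 2579 in Tead4KD, 2433 and 2798 in DoubleKD, and 3187 and 2747 in dsGFP of cross B. In cross A it read 3851 and 4274 FPKM in Tfap2cKD, 4584 and 4482 in Tead4KD, 3594 and 4069 in DoubleKD, and 4267 and 3980 in dsGFP. The 2 crosses did not overlap, and the log2 change was -0.60 (SE 0.0694, limma adjusted p = 2.78e-05). Its partner on the same mRNA, mt-Nd4, spanned 1927 to 2768 FPKM in cross B, against 3037 to 3879 FPKM in cross A (log2 change -0.55, limma adjusted p = 0.000112). mt-Nd5, a proton-pumping membrane subunit, spanned 1054 to 1367 FPKM in cross B, against 1452 to 1669 FPKM in cross A (log2 change -0.40, limma adjusted p = 7.08e-05). Neither range overlapped between the crosses.

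The other 3 genes of complex I did not pass. mt-Nd2 averaged 98.4% of cross A in cross B (log2 change -0.03, 95% interval -0.22 to 0.16) and mt-Nd3 101% (0.01, -0.15 to 0.17). mt-Nd6, the gene of the other strand, was at 802 and 645 FPKM in Tfap2cKD, 719 and 722 in Tead4KD, 646 and 895 in DoubleKD, and 771 and 728 in dsGFP of cross B. In cross A it was at 661 and 743 FPKM in Tfap2cKD, 833 and 799 in Tead4KD, 900.4 and 864 in DoubleKD, and 720 and 861 in dsGFP. Its 2 ranges overlapped widely, and its log2 change was -0.11 (95% interval -0.26 to 0.05, limma adjusted p = 0.273). As said above, these values may include RNA of the opposite strand, and how completely the mt-Nd6 mRNA was captured was not measured. mt-Nd6 stood at 0.537 to 0.713 times mt-Nd5 in cross B and at 0.455 to 0.561 times in cross A.

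mt-Cytb was at 14092 and 15140 FPKM in Tfap2cKD, 9882 and 11939 in Tead4KD, 12162 and 15197 in DoubleKD, and 15378 and 12902 in dsGFP of cross B. In cross A it was at 17419 and 18394 FPKM in Tfap2cKD, 22151 and 18842 in Tead4KD, 17581 and 20464 in DoubleKD, and 18128 and 21269 in dsGFP. The gene with the highest mean thus showed no overlap between the crosses. Its cross B mean was 69.2% of that of cross A (log2 change -0.54, SE 0.0875, limma adjusted p = 0.000354).

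All 3 mitochondrially encoded core subunits of cytochrome c oxidase, complex IV, were lower in cross B. mt-Co1, which holds the site where oxygen is reduced, spanned 2592 to 3657 FPKM in cross B and 3844 to 4479 FPKM in cross A (log2 change -0.41, limma adjusted p = 0.000111). mt-Co2, which accepts electrons from cytochrome c, spanned 1837 to 2398 FPKM in cross B and 2429 to 2981 FPKM in cross A (log2 change -0.37, limma adjusted p = 0.000312). mt-Co3 changed least of the genes that passed, with 85.6% of the cross A mean in cross B (log2 change -0.22, limma adjusted p = 0.00267), and its ranges overlapped, with 1680 to 1986 FPKM in cross B and 1898 to 2252 FPKM in cross A.

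For ATP synthase 1 of the 2 genes passed. mt-Atp6, the subunit a of the proton channel, passed at 8059 to 10526 FPKM in cross B, against 10365 to 13181 FPKM in cross A (log2 change -0.34, SE 0.0647, limma adjusted p = 0.00124). mt-Atp8 spanned 3320 to 19163 FPKM in cross B, against 4683 to 17982 FPKM in cross A, and its log2 change of -0.20 had a 95% interval of -0.87 to 0.47. That interval includes the change of mt-Atp6.

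The rRNAs went another way. mt-Rnr1 (ENSMUSG00000064337, MT 70 to 1024), of the small ribosomal subunit, was at 1486 and 1344 FPKM in Tfap2cKD, 1633 and 1373 in Tead4KD, 1637 and 1305 in DoubleKD, and 1609 and 1538 in dsGFP of cross B. In cross A it was at 1014 and 1161 FPKM in Tfap2cKD, 1043 and 1077 in Tead4KD, 1134 and 967 in DoubleKD, and 1010 and 945 in dsGFP. All 8 cross B libraries lay above all 8 cross A libraries, at 143% of the cross A mean (log2 change 0.51, SE 0.0646, limma adjusted p = 5.46e-05). mt-Rnr2 (ENSMUSG00000064339, MT 1094 to 2675), of the large subunit, did not pass at 106% of cross A (log2 change 0.08, 95% interval -0.05 to 0.21). mt-Rnr2 stood at 5.98 to 9.06 times mt-Rnr1 in cross B and at 8.82 to 11.4 times in cross A. mt-Nd1 is the first protein gene after the rRNAs, and the ratio of mt-Rnr1 to it was 0.179 to 0.291 in cross B, against 0.0902 to 0.124 in cross A.

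**Figure D2:**
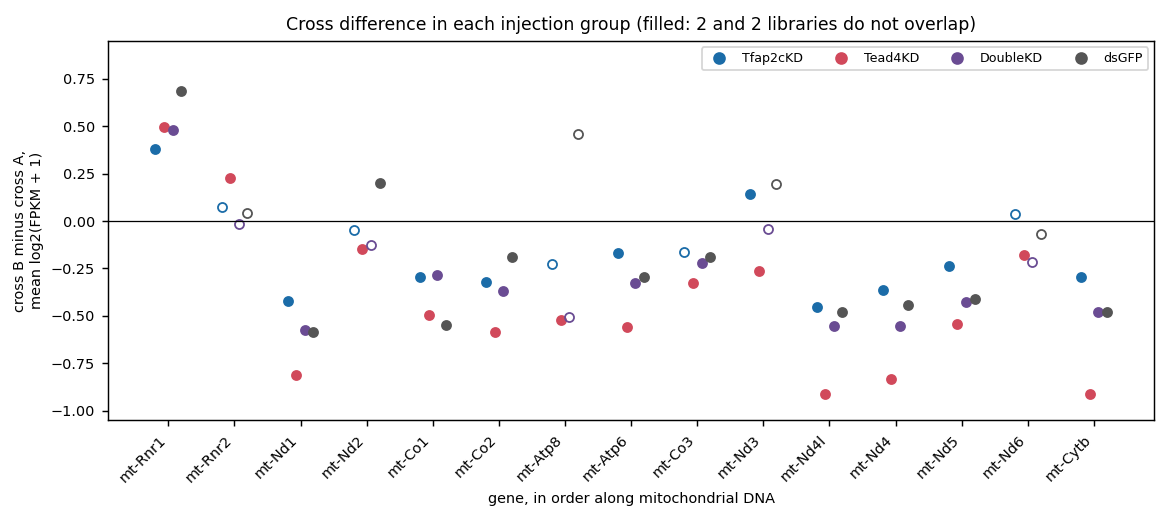
Difference between the crosses (mean log2(FPKM + 1) of 2 cross B libraries minus 2 cross A libraries) for each mitochondrial gene in each injection group, with filled points where the 2 and 2 libraries do not overlap. mt-Rnr1 is above 0 in all 4 groups, and mt-Nd1, mt-Nd4l, mt-Nd4, mt-Nd5 and mt-Cytb are below 0 in all 4, lowest in Tead4KD.

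The cross difference was also read within each injection group. For all 10 genes that passed, all 4 groups showed the same direction; these are the libraries on which the genes passed, so the groups add no independent support. For mt-Cytb the log2 difference was -0.29 in Tfap2cKD, -0.91 in Tead4KD, -0.48 in DoubleKD and -0.48 in dsGFP. For mt-Rnr1 it was 0.38 in Tfap2cKD, 0.50 in Tead4KD, 0.48 in DoubleKD and 0.69 in dsGFP. Over all 16 libraries, 8 of the 15 genes (53.3%) did not overlap between crosses. Of these, 7 were lower in cross B (46.7%, against 2.09% of all genes) and 1 was higher (6.67%, against 1.29% of all genes).

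Genes with the chromosome 1 copy and genes without it were both among those that passed. With the copy, 6 of 8 were lower in cross B and 2 did not pass, and without it 3 of 7 were lower, 1 was higher and 3 did not pass. mt-Nd1, mt-Nd5 and mt-Cytb are the lower genes without that copy, though mt-Nd5 matched chromosome 13 in part. Of the 7 Gm rows, 6 were lower in cross B as well, with log2 changes of -0.34 for Gm10925 and -0.59 for Gm10222, close to those of mt-Atp6 and mt-Nd4l. Gm28438 did not pass (log2 change 0.12, limma adjusted p = 0.275), and the mitochondrial row most like it over the 16 libraries was mt-Nd3.

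Put together, the mitochondrial rows held 8.30 ± 1.06% of the FPKM of a library in cross B, against 10.3 ± 1.17% in cross A (SD, n = 8 each), with overlap. Without mt-Atp8, whose scatter is described below, the share was 6.13% to 7.66% in cross B and 7.71% to 9.87% in cross A, without overlap. Weighted by gene length, which approximates the share of fragments, it was 5.81% to 7.28% in cross B and 7.17% to 8.74% in cross A. The rRNAs took 20.9 ± 1.93% of the mitochondrial FPKM without mt-Atp8 in cross B and 15.1 ± 1.42% in cross A (SD, n = 8 each).

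The split of mitochondrial mRNA between the complexes is given as a description. Complex I made up 34.8% to 37.6% of mitochondrial mRNA FPKM without mt-Atp8 in cross B, and 35.9% to 37.7% in cross A. The mt-Atp6 share was 19.6% to 20.8% in cross B, against 18.2% to 19.4% in cross A, without overlap. Complex III made up 25.4% to 30.3% in cross B and 29.0% to 31.9% in cross A.

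Markers of other cells were looked up beside these differences. Of 10 cumulus and granulosa markers, 4 were at 0 everywhere and the others reached at most 0.163 FPKM. Their sum was 0 to 0.165 FPKM in cross B and 0 to 0.14 FPKM in cross A. Of 7 sperm markers, 1 was at 0 everywhere and none reached 1 FPKM, with sums of 0 to 1.63 FPKM in cross B and 0.0741 to 1.52 FPKM in cross A. Of 6 blood markers in the table, 3 were at 0 everywhere and 2, Hba-a1 and Hba-a2, passed the filter. The blood sums were 9.86 to 58.2 FPKM in cross B and 23.7 to 77.7 FPKM in cross A; their part in the cross difference was not tested.

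In the knockdowns few mitochondrial transcripts passed, while many of all genes did in Tfap2cKD and DoubleKD and few in Tead4KD. Against dsGFP, 1 of 15 genes passed in Tfap2cKD (mt-Atp8, lower), where 29.6% of all genes passed. In Tead4KD 0 of 15 passed, where 6.13% of all genes passed, and in DoubleKD 0 of 15 passed, where 25.1% of all genes passed (limma, adjusted as above). At an unadjusted p under 0.05, limma gave 1 of the 15 in Tfap2cKD, 0 in Tead4KD and 1 in DoubleKD, against 40.1%, 21.1% and 36.6% of all genes. None of the 15 genes was free of overlap with dsGFP in any of the 3 comparisons, which share their control libraries. Of all genes, 22.1% were in Tfap2cKD, 9.67% in Tead4KD and 20.6% in DoubleKD. These ranges pool both crosses, and for the 10 genes that passed between crosses the dsGFP range holds the cross difference. In dsGFP mt-Nd1 ran from 6492 to 10471 FPKM and mt-Cytb from 12902 to 21269 FPKM. For such genes overlap cannot show that a knockdown change is absent.

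The intervals give the sizes of change that the data allow. Leaving mt-Atp8 aside, the log2 changes ran between -0.23 and 0.04 in Tfap2cKD, with 95% intervals reaching from -0.49 to 0.22. In Tead4KD they ran between -0.16 and 0.02, with intervals reaching from -0.42 to 0.22, and in DoubleKD between -0.28 and 0.12, with intervals reaching from -0.51 to 0.31. The medians over the 15 genes were -0.04 in Tfap2cKD, -0.07 in Tead4KD and -0.04 in DoubleKD, against 0.06, 0.05 and 0.05 for all genes. With mt-Atp8 included, the mitochondrial share of FPKM was 8.60 ± 1.07% in Tfap2cKD, 9.03 ± 1.78% in Tead4KD and 9.55 ± 1.76% in DoubleKD, against 9.95 ± 1.45% in dsGFP (SD, n = 4 each). Without mt-Atp8 it was 7.8 ± 0.8% in Tfap2cKD, 7.8 ± 1.5% in Tead4KD and 8.1 ± 1.2% in DoubleKD. The dsGFP share without mt-Atp8 was 8.2 ± 1.3% (SD, n = 4 each). Of the 6 blood markers in the table, only Hba-a1 and Hba-a2 passed the filter, so the list as a whole does not mark blood. Hba-a1 averaged 32.9 ± 10.9 FPKM in Tfap2cKD, 19.9 ± 8.93 FPKM in Tead4KD and 33.6 ± 11.6 FPKM in DoubleKD, against 12.4 ± 4.42 FPKM in dsGFP (SD, n = 4 each). Its part in the mitochondrial values was not tested.

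**Figure D3:**
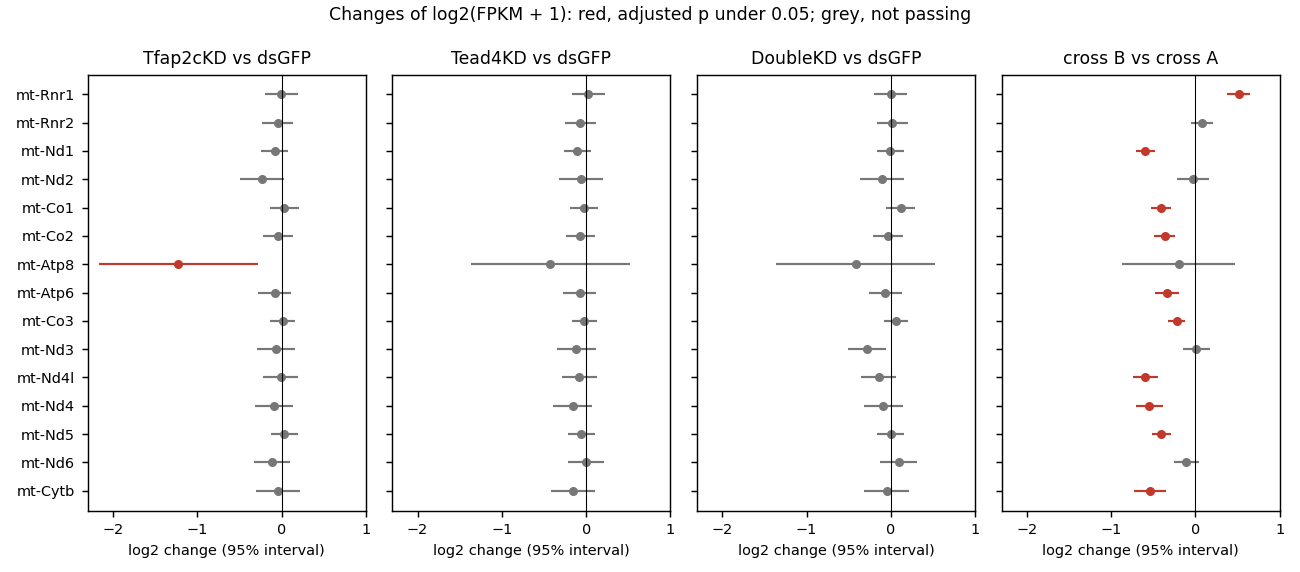
Change of log2(FPKM + 1) with its 95% interval for the 15 mitochondrial genes in 4 comparisons, red where the limma adjusted p was under 0.05. In the knockdowns mt-Atp8 in Tfap2cKD is the 1 gene that passed, with a wide interval, while 10 genes passed between the crosses, mt-Rnr1 upward and 9 downward.

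mt-Atp8, a small subunit of ATP synthase, was at 4683, 9207, 9502 and 3320 FPKM in Tfap2cKD A1, A2, B1 and B2. It was at 14349, 11183, 9829 and 7919 FPKM in Tead4KD and at 16387, 9791, 4165 and 19163 FPKM in DoubleKD, in the same order. In dsGFP it was at 8164, 17982, 15357 and 17980 FPKM. Tfap2cKD A2 and B1 lay above dsGFP A1, so the groups overlapped. The Tfap2cKD mean was 44.9% of the dsGFP mean, with a log2 change of -1.22 (SE 0.442, 95% interval -2.17 to -0.28, limma adjusted p = 0.0495). That call was lost without any 1 of Tfap2cKD A1 or B2, dsGFP A2, B1 or B2, the 4 Tead4KD libraries, and DoubleKD A1 or A2, with limma adjusted p between 0.0526 and 0.159. It was also lost within each cross alone, where the log2 change was -1.56 in cross B (limma adjusted p = 0.157) and -0.88 in cross A (limma adjusted p = 0.221). In DoubleKD, which received Tfap2c dsRNA too, the log2 change was -0.42 (95% interval -1.36 to 0.53).

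The scatter of mt-Atp8 was its own among these genes. Its SD of log2(FPKM + 1) between the 2 libraries of a group and cross was 0.799, larger than in 98.4% of all genes tested, while the other 14 genes lay between 0.0766 (mt-Nd1) and 0.201 (mt-Nd2). It is the shortest of the 15 genes at 204 bases, 43 of which belong to mt-Atp6 as well. mt-Atp6, from the same mRNA, averaged 10672 ± 1557 FPKM over the 16 libraries (SD), a coefficient of variation of 14.6%, against 45.8% for mt-Atp8.

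The ratio of mt-Atp8 to mt-Atp6 was 0.452, 0.789, 0.981 and 0.335 in Tfap2cKD A1, A2, B1 and B2. It was 1.09, 0.924, 1.22 and 0.870 in Tead4KD, 1.46, 0.795, 0.488 and 1.86 in DoubleKD, and 0.727, 1.36, 1.46 and 1.93 in dsGFP, in the same order. Libraries of 1 group and cross differed widely, as in DoubleKD cross B. The other bicistronic pair did not scatter in this way, and mt-Nd4l stood at 1.01 to 1.29 times mt-Nd4 in all 16 libraries. What sets the mt-Atp8 scatter was not tested.

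**Figure D4:**
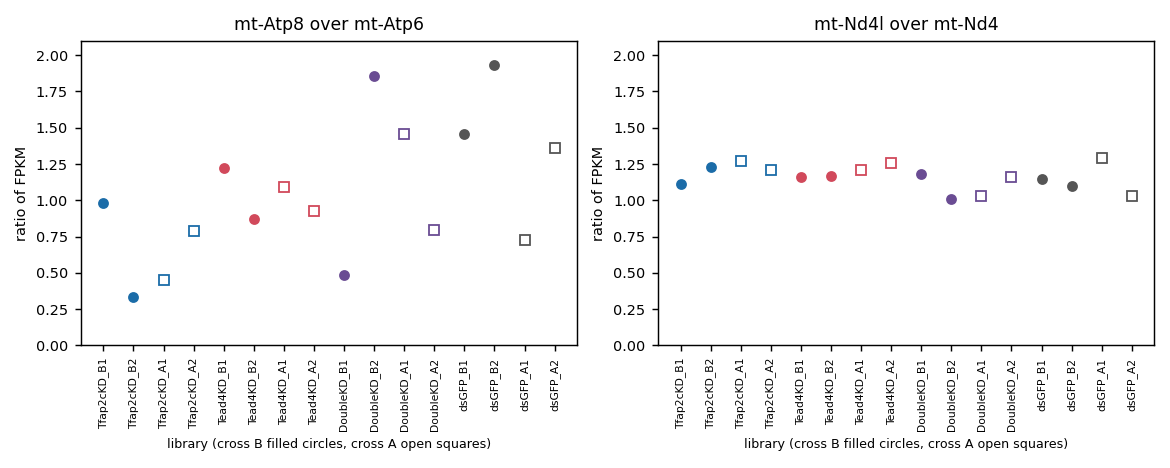
Ratio of FPKM in each of 16 libraries for the 2 pairs of genes that share an mRNA, mt-Atp8 over mt-Atp6 on the left and mt-Nd4l over mt-Nd4 on the right, with cross B as filled circles and cross A as open squares. The first ratio runs from 0.335 to 1.93, and the second stays between 1.01 and 1.29.

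mt-Nd3, a small membrane subunit of complex I, had the lowest p in DoubleKD without passing. It was at 1867, 1940, 1650 and 2078 FPKM in DoubleKD A1, A2, B1 and B2, against 2281, 1994, 2678 and 2227 FPKM in dsGFP. The groups overlapped at DoubleKD B2 and dsGFP A2. The log2 change was -0.28 (95% interval -0.51 to -0.06, limma adjusted p = 0.0655). It passed without Tead4KD B1 (limma adjusted p = 0.0416), without DoubleKD B2 (limma adjusted p = 0.0489), without dsGFP A2 (limma adjusted p = 0.0333), and with median-ratio rescaling (limma adjusted p = 0.0461).

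No mitochondrial gene passed between DoubleKD and either single knockdown, and Tfap2cKD was not tested against Tead4KD. Between DoubleKD and Tfap2cKD 0 of 15 passed, where 0.14% of all genes passed, and between DoubleKD and Tead4KD 0 of 15 passed, where 23.7% of all genes passed. The non-additive part, which is the change in DoubleKD minus the sum of both single changes, gave 0 of 15, where 0.753% of all genes passed. At an unadjusted p under 0.05 limma gave 0 of the 15 in each of these 3, against 9.52%, 35.7% and 12% of all genes.

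Whether a knockdown acted differently in the crosses was tested with an interaction term. It gave 0 of 15 genes for each knockdown, and the share of all genes that passed was 0% for each. For Tead4KD, 3 of the 15 had an unadjusted p under 0.05 in limma: mt-Co2, mt-Nd4l and mt-Nd3, all with a lower Tead4KD change in cross B. Of all genes, 6.98% had one. The largest of these differences was that of mt-Nd3, -0.46 (95% interval -0.85 to -0.06, limma adjusted p = 0.689). Tfap2cKD and DoubleKD gave 0 such genes among the 15, against 16.5% and 11.2% of all genes.

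Nuclear genes chosen for the upkeep of mitochondrial DNA and RNA were read as a list of 61, of which 57 passed the filter. Besides genes for copying, transcribing and processing, the list held regulators of mitochondrial biogenesis, such as Pprc1, Nrf1 and Gabpa. In Tfap2cKD 7 were higher and 5 lower (12.3% and 8.77%, against 16.3% and 13.2% of all genes). In Tead4KD 1 was higher and 3 were lower (1.75% and 5.26%, against 3.35% and 2.78% of all genes). In DoubleKD 4 were higher and 9 lower (7.02% and 15.8%, against 13.9% and 11.3% of all genes). Between the crosses 10 were higher and 10 lower in cross B (17.5% each, against 17.2% and 16.3% of all genes).

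Of the list, 6 genes were always looked up, and none of these 6 passed in any knockdown. Tfam, which packages mitochondrial DNA and starts its transcription, averaged 18.4 ± 2.44 FPKM in Tfap2cKD, 16.4 ± 2.34 in Tead4KD and 18.8 ± 3.21 in DoubleKD, against 15.2 ± 2.44 in dsGFP (SD, n = 4 each). Its log2 change was 0.29 in DoubleKD (95% interval -0.01 to 0.60) and 0.27 in Tfap2cKD (-0.04 to 0.57). Polrmt, the mitochondrial RNA polymerase, had a log2 change between -0.11 and 0.13 in the 3 knockdowns, and Polg, the DNA polymerase, between -0.05 and 0.005. Mtpap, which adds the poly(A) tails, had a log2 change between 0.08 and 0.12. Lrpprc and Slirp form a complex that stabilises mitochondrial mRNAs. Lrpprc had a log2 change between -0.21 and -0.09 in the knockdowns, and Slirp between -0.23 and 0.03.

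Of these 6 genes, Lrpprc passed between the crosses. It averaged 25.5 ± 2.90 FPKM in cross B, against 20.6 ± 2.12 FPKM in cross A (SD, n = 8 each), a log2 change of 0.30 (limma adjusted p = 0.00798), opposite in sign to the 9 mitochondrial mRNAs that passed. Slirp had a log2 change of -0.26 (95% interval -0.47 to -0.05, limma adjusted p = 0.0531). The list member with the smallest p between the crosses was Rnaseh1, which cuts RNA paired with DNA, higher in cross B at 32.9 ± 4.39 FPKM against 21.2 ± 2.74 FPKM in cross A (limma adjusted p = 0.000111). Pnpt1, a subunit of the RNA-degrading complex of mitochondria, was lower in cross B at 6.89 ± 1.41 FPKM against 10.8 ± 1.14 FPKM in cross A (limma adjusted p = 0.000382). Mgme1, a nuclease of mitochondrial DNA replication, was lower in cross B (log2 change -0.52, limma adjusted p = 0.00107). The row 1110008L16Rik, listed under that name for Prorp, the nuclease that trims the front of mitochondrial tRNAs, was lower too (log2 change -0.53, limma adjusted p = 0.000157). Trmt5, a methyltransferase of tRNAs, was higher (log2 change 0.28, limma adjusted p = 0.00482).

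Ptcd2 was lower in all 3 knockdowns. It encodes a pentatricopeptide repeat protein that in mice takes part in processing the RNA that holds mt-Nd5 and mt-Cytb. Ptcd2 averaged 11.8 ± 0.866 FPKM in Tfap2cKD, 14.3 ± 2.24 FPKM in Tead4KD and 10.0 ± 1.56 FPKM in DoubleKD, against 24.5 ± 2.77 FPKM in dsGFP (SD, n = 4 each). Its log2 change was -0.99 in Tfap2cKD (limma adjusted p = 5.1e-05), -0.74 in Tead4KD (limma adjusted p = 0.00263) and -1.21 in DoubleKD (limma adjusted p = 1.41e-05). None of the 3 ranges overlapped that of dsGFP, whose lowest library was at 22.3 FPKM. mt-Cytb itself did not pass in any of them, with log2 changes of -0.04 in Tfap2cKD (95% interval -0.30 to 0.22), -0.16 in Tead4KD (95% interval -0.42 to 0.11) and -0.05 in DoubleKD (95% interval -0.31 to 0.21).

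Trnt1, which adds the CCA end to tRNAs, was lower in all 3 knockdowns as well, with log2 changes of -0.33 in Tfap2cKD (limma adjusted p = 0.0202), -0.37 in Tead4KD (limma adjusted p = 0.0369) and -0.52 in DoubleKD (limma adjusted p = 0.00138). Several members passed in Tfap2cKD and in DoubleKD but not in Tead4KD; the difference between knockdowns was not tested for them. Eral1, which in human cells helps assemble the small ribosomal subunit on the rRNA of mt-Rnr1, was higher in Tfap2cKD (log2 change 0.58, limma adjusted p = 0.00278) and in DoubleKD (log2 change 0.60, limma adjusted p = 0.00247). The Prorp row was higher in Tfap2cKD (log2 change 0.75, limma adjusted p = 0.000151) and in DoubleKD (log2 change 0.64, limma adjusted p = 0.000629). Fastkd5, which in human cells takes part in processing mitochondrial RNA at sites without a tRNA, was higher in Tfap2cKD (log2 change 0.48, adjusted p = 0.013 in limma) and in DoubleKD (log2 change 0.67, adjusted p = 0.00175 in limma).

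Top1mt, the mitochondrial topoisomerase, was lower in Tfap2cKD (log2 change -0.70, limma adjusted p = 0.00119) and in DoubleKD (log2 change -0.59, limma adjusted p = 0.00479). Ptcd3, a protein of the small ribosomal subunit, was lower in Tfap2cKD (log2 change -0.49, limma adjusted p = 0.00975) and in DoubleKD (log2 change -0.47, limma adjusted p = 0.015). Fastkd1, an RNA-binding protein of mitochondria, was lower in Tead4KD at 9.82 ± 1.71 FPKM and in DoubleKD at 13.1 ± 1.81 FPKM, against 18.9 ± 2.43 FPKM in dsGFP (SD, n = 4 each). Its log2 change was -0.88 in Tead4KD (limma adjusted p = 0.00139) and -0.50 in DoubleKD (limma adjusted p = 0.0151). Tefm, the elongation factor of mitochondrial transcription, was higher in Tead4KD (log2 change 0.45, limma adjusted p = 0.0456).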

How the data were processed

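Per the labels' protocols, polyadenylated RNA of 10 embryos was reverse transcribed with SuperScript II, amplified by Smart-seq2 and made into libraries with a TruePrep V2 kit. CASAVA, Trim Galore, STAR, Cufflinks and mm10 are named in the submitters' processing notes, without versions; the annotation is not given in the sources used here. Values were deposited as FPKM, scaled by the authors to gene length and library size. The table had 43496 lines; 59 repeated identifiers were summed. It held 0 columns from outside the series.

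The 11422 genes that reached 1 FPKM in 4 or more of the 16 libraries were fitted as log2(FPKM + 1) with limma 3.58.1 in R 4.3.3, with terms for group and cross and a trend of variance on expression; this scale understates changes of low genes. A second fit added a group by cross interaction. Tests were two-sided and Benjamini-Hochberg adjusted over all genes, with a threshold of 0.05. The fit was also run on simulated data with independent noise and no cross difference, so that run does not cover the cross comparison. Nuclear copies were sought with BLAST+ 2.17.0 in NCBIM37; no coordinate was converted between builds. Named were the 15 detected genes, up to 5 upkeep genes called per comparison by lowest p, and Tfam, Polrmt, Lrpprc, Slirp, Mtpap and Polg. The members, lists and tests were chosen with earlier results of these data known.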

Additional observations from a re-analysis of the deposited data

Results flagged for a closer look

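In 96 sets of 4 or 8 libraries, the highest or lowest library was compared with the others, and chance alone sets about 1 in 20 such sets apart; 2 were set apart here. mt-Nd6 in DoubleKD B1 was at 645.52 FPKM, low beside 864 to 900.4 FPKM in the other 3 DoubleKD libraries. The mitochondrial share of FPKM in dsGFP A2 was 12.1%, high beside 8.95% to 9.43% in the other 3 dsGFP libraries.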

How the results depend on the processing

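Between the crosses, 10 of 15 genes passed under every alternative run, leaving out each library in turn included (10 to 10). For Tfap2cKD against dsGFP, 1 gene passed, mt-Atp8, and 0 passed with a pseudocount of 0.1, without the low-value filter, with quantile normalization, with values rescaled to the non-mitochondrial sum, without the cross term, with the replicate block, in cross A alone and in cross B alone; leaving out each library in turn gave 0 to 1. The adjusted p of mt-Atp8 in these alternatives ran from 0.0502 to 0.221. For DoubleKD against dsGFP, 0 passed, and 1, mt-Nd3, passed with median-ratio rescaling (limma adjusted p = 0.0461); leaving out each library gave 0 to 1, with mt-Nd3 passing without Tead4KD B1, DoubleKD B2 or dsGFP A2. Tead4KD, the other contrasts and the interactions gave 0 under every alternative run. Adding Gm10925 and Gm10222 to their mitochondrial rows, an alternative chosen after seeing the data, changed no call. Of the single-gene values, 1492 stayed on the same side of the threshold, 19 lost it, 4 gained it and 0 reversed; the cause was not tested.

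Replicate numbers did not pair the samples: of 12 same-numbered pairs, correlations of deviations ran from -0.165 to 0.176 and 2 exceeded 0.1, and with the replicate block mt-Atp8 in Tfap2cKD had an adjusted p of 0.0696, with 0 genes passing in the knockdowns. Depth is unknown, so precision rests on 4 libraries a group.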
